A study of Homo sapiens with 96 samples.

Results

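The effect of adding the lysine-specific demethylase 1 (LSD1) inhibitor GSK2879552 to all-trans retinoic acid (ATRA) was examined in OCIAML3, a human acute myeloid leukaemia (AML) cell line with an NPM1 mutation. The libraries labelled Combo (1 µM GSK2879552 with 100 nM ATRA) were set against those labelled ATRA (100 nM ATRA), with 2 replicates of each at day 2 and at day 4, which made 8 of the 96 libraries of the series, and the comparison covered the 18701 of 60552 genes that passed a filter on low counts. A further 8 OCIAML3 libraries, DMSO (0.1%) and 552A at the same days, gave the effect of the inhibitor without ATRA, and 40 Combo and ATRA libraries of HL60, Kasumi1, MOLM13, MV411 and THP1 gave its effect with ATRA in other AML lines. 552A was taken to name the arm with GSK2879552 by itself (1 µM), since its digits end that compound's name and no other arm of the treatment protocol was left. All OCIAML3 groups came from 1 cell line, total RNA was sequenced, and the labels did not state that n1 and n2 were separate cultures, so p-values measure only how far these libraries spread, and that spread may be technical.

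LSD1 removes methyl groups from histone H3 lysine 4 and acts in repressor complexes that transcription factors such as GFI1 bring to the enhancers of myeloid genes. ATRA binds retinoic acid receptors, which then switch from repression to activation of their target genes, and it drives granulocytic differentiation in acute promyelocytic leukaemia. Interferons signal through factors such as STAT2 and IRF9, whose complex binds paired TTTC elements in the promoters of antiviral genes.

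Total counts over the 60552 gene rows ran from 12.82 M to 24.97 M per library, with a median of 20.2 M. Mitochondrially encoded genes took 0.985 to 4.633% of the counts, highest in ATRA day 2 replicate 2, which was also the shallowest library, and 3.646% in Combo day 4 replicate 1. The dependence of a library's counts on gene GC content, as log2 per 10% GC against the mean of the line, was -0.09 and 0.13 in ATRA at day 2 and 0.13 and -0.10 at day 4, while in Combo it was -0.38 and 0.12 at day 2 and -0.08 and -0.51 at day 4. Of the myeloid genes fixed as defining for these cells, CD33 was at 74.5 to 95.5 CPM (counts per 1 M counts of the TMM-adjusted library size) and ITGB2 at 426 to 989 CPM in the 8 libraries, whereas MPO was at 0.318 to 4.04 CPM. The 12 megakaryocyte and erythroid markers summed to 14.3 to 20.8 CPM in ATRA and 9.66 to 16.8 CPM in Combo, with GP9, PF4, PPBP, HBB and HBA1 at 0. The 12 mast cell, basophil and eosinophil markers summed to 2.35 to 3.82 and 3.18 to 4.27 CPM, with TPSAB1, TPSB2, CPA3, FCER1A, PRG3 and CLC at 0, and the 12 lymphoid markers to 4.25 to 6.73 and 2.13 to 5.95 CPM, with CD3D and CD2 at 0. The longer lymphoid gene list, which adds GZMA among others, summed to 7.64 to 11.2 CPM in ATRA and 61.5 to 124 CPM in Combo, of which GZMA had 1.77, 1.02, 5.2 and 3.2 CPM and 118, 53.9, 85.5 and 60.3 CPM. The part of other cell types in the results was not tested. Since the RNA came from bulk cultures, fewer cells of a type and less RNA per cell cannot be told apart.

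Addition of the inhibitor to ATRA left OCIAML3 cells with lower RNA levels of 25 of 35 interferon response genes, such as IFI27 and MX1. Monocyte and macrophage genes went both ways, with 7 higher, CD163, VCAN and LYZ among them, and 6 lower, SIGLEC1 and CX3CR1 among them, of 19 tested. Some of the 7 passed the filter on low counts only through their level in Combo. The co-stimulatory ligand CD86 and the integrin ITGAM were higher. Over both days 1049 of the 18701 genes tested were called higher in Combo (5.61%) and 693 lower (3.71%), at an adjusted p under 0.05 in edgeR's quasi-likelihood test with Benjamini-Hochberg adjustment, the source of every adjusted p here unless another test is named. Of these, 512 were at least 2-fold higher and 285 at least 2-fold lower, and 75 and 18 reached 8-fold. Protein-coding genes made up 907 of the genes called higher and 626 of those called lower, of 13018 tested. With offsets for GC content and gene length, which model the trend described above, 1678 genes were called higher (8.97%) and 1728 lower (9.24%), so the higher share of the calls went from 60.2 to 49.3%. When single libraries were left out, 1048 to 2512 genes were called. The count was 1093 without ATRA day 2 replicate 2, 1062 without ATRA day 4 replicate 1 and 1048 without ATRA day 4 replicate 2. The median GC content was 43.9% for genes called higher, 50.2% for those called lower and 47.6% for all tested, and 47.3 and 47.0% for the 2 directions after the offsets. Values for a gene are log2 differences, Combo minus ATRA over both days, with their standard error (SE), over 4 libraries against 4. The largest rises and falls were named only where the groups were separate within each day, so separation is no result for those genes. The gene lists below were chosen with results of these data known, so a list is described by its counts and its median.

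**Figure D1:**
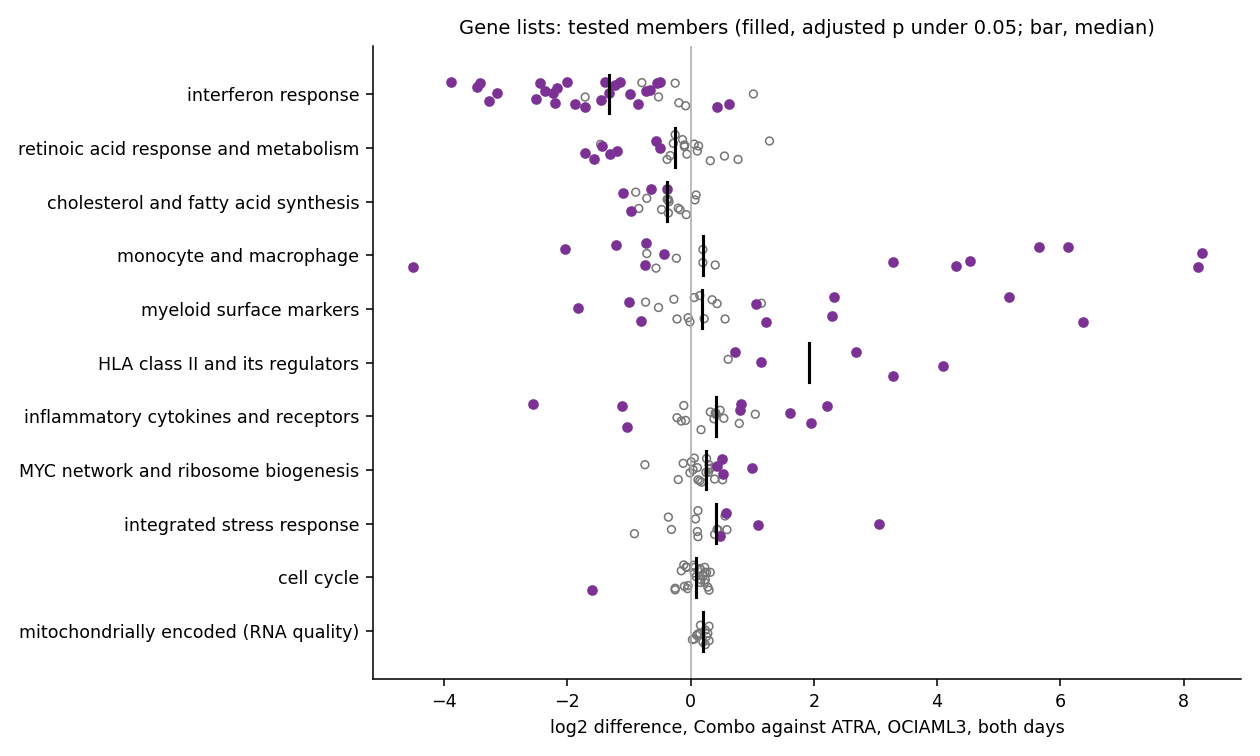
Each point is a tested gene of the list named on the vertical axis, placed by its log2 difference between Combo and ATRA in OCIAML3 over both days (4 libraries against 4). Filled points have an adjusted p under 0.05 and the bar is the list's median. The interferon response list has its median at -1.33 with 25 of 35 points filled below 0, while the monocyte and macrophage list spreads from -4.51 to 8.29.

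All 35 genes of the interferon response list passed the filter on low counts. Of them 25 were called lower in Combo than in ATRA and 2 higher, against 3.71 and 5.61% of all genes, and the list's median was -1.33, against 0.00 for all genes tested. With the GC and length offsets 29 were lower and 2 higher. When single libraries were left out, 21 to 26 were called lower, 23 of them without the shallow ATRA day 2 replicate 2 and 23 without Combo day 4 replicate 1. MX1 was at 78, 40.5, 68.5 and 89.3 CPM in the ATRA libraries and at 8.11, 5.5, 5.66 and 5.26 CPM in the Combo libraries (day 2 replicates 1 and 2, then day 4 replicates 1 and 2, in this and the following sentences). Every ATRA library was above every Combo library. MX1, a GTPase that blocks the replication of RNA viruses, fell by 3.47 ± 0.27 on the log2 scale (adjusted p = 9.42e-05). OAS3 was at 94.1, 46.6, 55.5 and 83.1 CPM in the ATRA libraries and at 10.5, 7.54, 7.37 and 3.86 CPM in the Combo libraries. OAS3, which makes the 2-5A signal that activates RNase L, had separate groups with a log2 difference of -3.27 ± 0.32 (SE), adjusted p = 0.000256. IFI44L was at 47.5, 17.8, 32 and 53.6 CPM in the ATRA libraries and at 4.87, 2.43, 3.61 and 2.99 CPM in the Combo libraries. IFI44L, an interferon-induced gene, also had no overlap between the groups, with a log2 difference of -3.42 ± 0.37 (SE), adjusted p = 0.000504. IFIT2 was at 32.6, 19.9, 23.5 and 23.5 CPM in the ATRA libraries and at 5, 3.34, 5.86 and 3.99 CPM in the Combo libraries. IFIT2, a binder of foreign RNA, fell by 2.44 ± 0.23 on the log2 scale (adjusted p = 0.000225), again without overlap. MX1, OAS3, IFI44L and IFIT2 were among the largest falls, for which the naming rule required separation within each day. Their separation is thus no result.

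The genes of the signalling chain itself were among those called lower. STAT2 was at 238, 219, 239 and 223 CPM in the ATRA libraries and at 91.4, 91.7, 99.4 and 77.5 CPM in the Combo libraries. STAT2, a subunit of the factor that type I interferon activates, had a log2 difference of -1.33 ± 0.10 (SE), adjusted p = 7e-05, with separate groups. Its partner IRF9 had -0.99 ± 0.17 (SE), adjusted p = 0.00664. IRF1, a transcription factor induced by interferon, was lower by a smaller amount, at -0.65 ± 0.08 (SE), adjusted p = 0.000841 (not called in a fit of all 16 OCIAML3 libraries), and the viral RNA sensor IFIH1 was at -1.39 ± 0.12 (SE), adjusted p = 0.000121. The largest differences of the list were those of IFI27 (-3.88 ± 0.62), MX1, IFI44L, OAS3 and IFI44 (-3.14 ± 0.49), followed by EPSTI1 (-2.50 ± 0.31). SIGLEC1, an interferon-inducible sialic acid receptor of macrophages that stands on the monocyte list, was at 28, 17.1, 27 and 33.5 CPM with ATRA and at 1.82, 1.74, 0.781 and 0.454 CPM with Combo, a log2 difference of -4.51 ± 0.41 (SE), adjusted p = 0.00018. The 2 members called higher were HERC5, the ligase that attaches ISG15 (0.63 ± 0.13 (SE), adjusted p = 0.0164), and TRIM22, an antiviral ubiquitin ligase (0.43 ± 0.12 (SE), adjusted p = 0.0489). Both calls were lost without ATRA day 2 replicate 2, without ATRA day 4 replicate 1 or without ATRA day 4 replicate 2, and that of TRIM22 also without Combo day 2 replicate 1 or either Combo day 4 library. Of the guanylate-binding proteins, GBP1 was at 1.02 ± 0.33 (adjusted p = 0.0891, not called) and GBP4 at -0.49 ± 0.12 (adjusted p = 0.034), a call lost on leaving out any library except Combo day 2 replicate 2 and Combo day 4 replicate 1.

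The list was also measured in the arms without ATRA. MX1 was at 3.47 ± 0.0794 CPM (SD, n = 2) with DMSO, 1.63 ± 0.732 with 552A, 59.3 ± 26.5 with ATRA and 6.8 ± 1.85 with Combo at day 2, and at 3.35, 1.64, 78.9 and 5.46 CPM at day 4. IFI44L went from 0.205 CPM with DMSO to 42.8 with ATRA and 3.3 with Combo at day 4, so its level with both drugs lay between those with DMSO and with ATRA. STAT2 was at 95.6 CPM with DMSO and 88.4 CPM with Combo at day 4. In ATRA against DMSO 34 of the 35 genes were called higher (22.7% of all 19001 genes tested were called higher and 24.2% lower) with a median of 2.77. That comparison shares the ATRA libraries with Combo against ATRA, so the values are set side by side and not as independent results. In 552A against DMSO, which shares no library with Combo against ATRA, 4 of the 29 members tested were higher and 1 lower (2.54 and 1.05% of 19165 genes), with a median of -0.09.

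**Figure D2:**
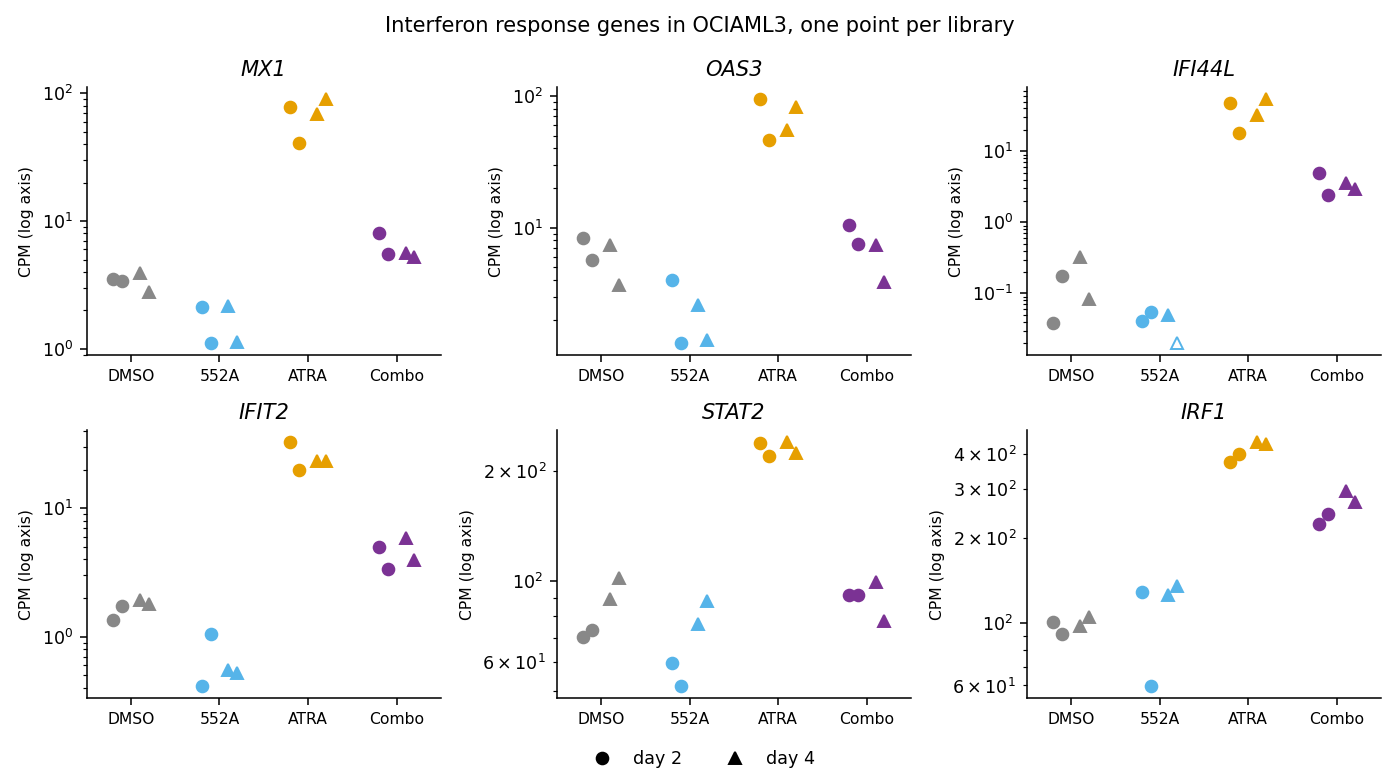
Normalised counts (CPM, log axis) of 6 genes of the interferon response list in the 16 OCIAML3 libraries, by treatment. Circles are day 2, triangles day 4, and an open symbol on the lower edge marks a value under 0.02 CPM. In each of the 6 genes all 4 ATRA points lie above all 4 Combo points. For MX1, OAS3, IFI44L and IFIT2 the naming rule required separation within each day.

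Promoters of these genes are shown because the element that interferon-activated factors bind can be read in them. RefSeq promoters (GRCh38.p14, 250 bases before to 50 after the start) were found for 19 of the 25 list members called lower. Of these, 12 (63.2%) held a pair of TTTC separated by 2 bases on either strand, against 310 of 10268 promoters of protein-coding genes tested (3.02%), 22 of 712 of genes called higher (3.09%) and 996 of all 27305 promoters (3.65%). Among genes called lower that are not on the list it was 31 of 467 (6.64%). This pair was chosen with the results known, and a match is a description of the letters, not a binding site. The GFI1 core AAATCA was held by 53 of 712 promoters of genes called higher (7.44%), 50 of 486 of genes called lower (10.3%) and 7.05% of those tested, and the PU.1 motif GAGGAAGT by 2.81, 3.91 and 2.55%, on either strand in each case. In the sequences below, capitals mark the TTTC pair or its reverse complement. In MX1 it starts 11 bases after the annotated start, in OAS3 the nearer of 2 starts 12 bases before it, in IFI44 it starts 18 bases before it and in IFI27 the nearer of 2 starts 95 bases before it.
MX1, chr21:41420308-41420607, + strand: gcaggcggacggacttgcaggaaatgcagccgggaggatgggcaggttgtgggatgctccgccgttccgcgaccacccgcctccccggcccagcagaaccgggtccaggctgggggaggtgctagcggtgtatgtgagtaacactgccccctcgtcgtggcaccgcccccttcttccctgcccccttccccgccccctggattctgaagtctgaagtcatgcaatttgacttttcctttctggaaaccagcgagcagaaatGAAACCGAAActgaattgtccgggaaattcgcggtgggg
OAS3, chr12:112938224-112938523, + strand: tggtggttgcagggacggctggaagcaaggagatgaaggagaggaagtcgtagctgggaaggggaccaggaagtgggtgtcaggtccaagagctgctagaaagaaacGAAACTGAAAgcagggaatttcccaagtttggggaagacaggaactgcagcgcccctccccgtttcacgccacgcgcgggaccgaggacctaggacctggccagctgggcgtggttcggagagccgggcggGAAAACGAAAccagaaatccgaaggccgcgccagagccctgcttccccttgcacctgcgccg
IFI44, chr1:78649539-78649838, + strand: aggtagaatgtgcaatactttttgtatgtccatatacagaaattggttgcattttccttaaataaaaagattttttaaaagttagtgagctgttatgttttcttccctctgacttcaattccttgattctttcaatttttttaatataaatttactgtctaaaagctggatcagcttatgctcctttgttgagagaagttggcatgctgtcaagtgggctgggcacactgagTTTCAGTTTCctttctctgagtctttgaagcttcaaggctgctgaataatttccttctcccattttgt
IFI27, chr14:94110486-94110785, + strand: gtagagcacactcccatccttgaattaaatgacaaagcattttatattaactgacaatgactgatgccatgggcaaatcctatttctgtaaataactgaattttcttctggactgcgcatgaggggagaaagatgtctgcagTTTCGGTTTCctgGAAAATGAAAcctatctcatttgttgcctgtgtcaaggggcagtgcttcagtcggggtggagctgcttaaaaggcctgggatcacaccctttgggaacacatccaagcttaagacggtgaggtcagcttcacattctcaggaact

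Across the 6 lines the interferon response list did not move in 1 direction. In MV411 16 of 35 members were called lower and 2 higher (15 and 17.1% of all genes, median -1.38), in THP1 23 of 35 were higher and 0 lower (12.5 and 11.7%, median 0.75), in Kasumi1 20 of 32 were higher and 0 lower (5.93 and 1.84%, median 0.89) and in MOLM13 9 of 34 were higher and 0 lower (5.72 and 2.99%, median 0.39). In HL60 none of 25 was called in either direction (0.734% higher and 0.344% lower of all genes), and its median was -0.41. The difference itself was tested as the effect in OCIAML3 minus the mean of the effects in the other 5 lines, in which 1081 of 23654 genes were called higher (4.57%) and 694 lower (2.93%). Of the interferon response list 15 members were called lower and 0 higher in that test. MX1 had a log2 difference between the effects of -3.02 ± 0.51 (SE), adjusted p = 0.000134, STAT2 -1.39 ± 0.18 (SE), adjusted p = 1.24e-06 and OAS2 -2.21 ± 0.55 (SE), adjusted p = 0.00943. Within single lines MX1 had a log2 difference of -4.23 in MV411, 0.90 in THP1 and 1.64 in Kasumi1, all called, and -0.46 in HL60 and -0.10 in MOLM13 without a call. When single OCIAML3 libraries were left out, the count of 15 was 11 to 14. It was 18 without Kasumi1 Combo day 4 replicate 1 and MV411 Combo day 4 replicate 2. It was 27 without MV411, 24 without HL60 and 9 without THP1.

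**Figure D3:**
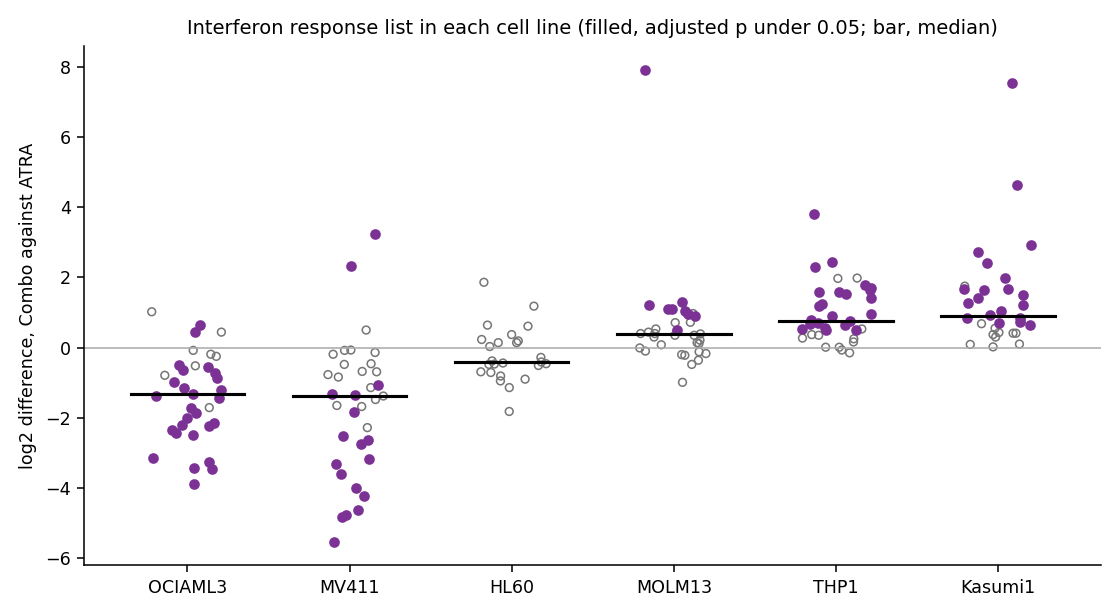
Log2 difference between Combo and ATRA over both days for each tested gene of the interferon response list in the 6 cell lines (8 libraries a line). Filled points have an adjusted p under 0.05 in that line and the bar is the median. OCIAML3 and MV411 have medians of -1.33 and -1.38, and MOLM13, THP1 and Kasumi1 of 0.39, 0.75 and 0.89.

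Of the 28 monocyte and macrophage genes 19 could be tested, with 7 called higher and 6 lower (5.61 and 3.71% of all genes) and a median of 0.20. LY96, FCN1 and CD163 passed the filter on low counts only through their level in Combo, and CD14 was also near 0 with ATRA at day 4 (0.0772 CPM). The count of rises is thus no support for a rise of the list. The 7 rises were held whichever of the 8 libraries was left out. CD163 (ENSG00000177575.12, chromosome 12, 7470813 to 7503893, minus strand), the haemoglobin-haptoglobin scavenger receptor of macrophages, was at 0, 0, 0 and 0.197 CPM in the ATRA libraries and 21.4, 13.3, 16.4 and 23.6 CPM in the Combo libraries. It was close to absent with ATRA, with 4 counts over the 4 libraries, and the groups were far apart, with a log2 difference of 8.29 ± 0.56 (SE), adjusted p = 3.8e-05. VCAN was at 8.54, 20.5, 24.1 and 40.7 CPM in the ATRA libraries and at 547, 655, 1580 and 2150 CPM in the Combo libraries. VCAN encodes the proteoglycan versican, which classical monocytes make, and rose by 5.65 ± 0.31 on the log2 scale (adjusted p = 1.83e-05). LYZ was at 38.3, 36.8, 120 and 98.1 CPM in the ATRA libraries and at 308, 359, 1210 and 1060 CPM in the Combo libraries. Lysozyme RNA, a monocyte product, rose by 3.29 ± 0.11 (adjusted p = 1.34e-06), with no overlap and with higher levels at day 4 in both arms. ADGRE1 was at 1.24, 1.49, 2.35 and 2.07 CPM in the ATRA libraries and at 24.1, 25, 45.6 and 46.3 CPM in the Combo libraries. ADGRE1, the human F4/80 homologue, rose by 4.31 ± 0.14 (adjusted p = 1.34e-06), and the groups were separate. For CD163, VCAN and ADGRE1, among the largest rises, the naming rule required separation within each day. The other 3 rises were in genes at low levels. LY96, the partner of TLR4 in binding lipopolysaccharide, had 0 counts in the 4 ATRA libraries and 153 in the 4 Combo libraries, at least 43.5-fold higher against a floor of 3 counts over the group. FCN1, a monocyte lectin, had 1 count against 118, a ratio of 101 (95% exact interval 17.7 to 4010, counting error only). CD14, the lipopolysaccharide co-receptor, was at 0.0772 CPM with ATRA and 2.55 CPM with Combo at day 4 (4.54 ± 0.55 (SE), adjusted p = 0.00088).

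The 6 members called lower were SIGLEC1, CX3CR1 (-2.04 ± 0.23 (SE), adjusted p = 0.000541), CCR2 (-1.21 ± 0.23 (SE), adjusted p = 0.00983), TLR4 (-0.74 ± 0.11 (SE), adjusted p = 0.00374), CD4 (-0.43 ± 0.10) and CD68. The calls of CD4 and CD68 were lost without ATRA day 2 replicate 2 or either ATRA day 4 library, among others, which left 4 to 7 members lower when single libraries were left out. CX3CR1 and CCR2, chemokine receptors of non-classical and classical monocytes, were thus both lower while CD14, VCAN and FCN1 were higher. FCN1, and CD14 at day 4, were near 0 with ATRA. Of 22 myeloid surface markers tested, 6 were higher and 3 lower (5.61 and 3.71% of all genes). CD86 was at 0.382, 0.156, 0.559 and 1.28 CPM in the ATRA libraries and at 14.3, 6.75, 35.6 and 30.9 CPM in the Combo libraries. CD86, a co-stimulatory ligand that is used as a marker of LSD1 inhibition in AML cells, rose by 5.16 ± 0.37 (adjusted p = 4.68e-05), and every Combo library lay above every ATRA library. The naming rule for the largest rises required separation of CD86 within each day. ITGAM was at 5.16, 6.41, 8.55 and 10.2 CPM in the ATRA libraries and at 26.3, 49.6, 36.4 and 33.5 CPM in the Combo libraries. ITGAM, the CD11b integrin chain gained on myeloid differentiation, rose by 2.32 ± 0.25 (adjusted p = 0.000412). ICAM1 (1.22 ± 0.25), LILRB1 (2.29 ± 0.42) and ITGAX (1.06 ± 0.22) were also higher, and the call of ITGAX was lost without ATRA day 2 replicate 1 or without Combo day 4 replicate 1. ICAM1 and ITGAX were not called in a fit of all 16 OCIAML3 libraries. The falls were in CD244 (-1.83 ± 0.18 (SE), adjusted p = 0.000276), CD83 (-0.81 ± 0.14 (SE), adjusted p = 0.00633) and ANPEP, which is CD13 (adjusted p = 0.0283), the last lost without ATRA day 2 replicate 2, either ATRA day 4 library or Combo day 2 replicate 1. CD33 was at 0.22 ± 0.09 (adjusted p = 0.207) and CD38, a direct target of ATRA, at -0.33 ± 0.14 (adjusted p = 0.187; -0.47 and adjusted p = 0.00857 with the GC and length offsets).

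**Figure D4:**
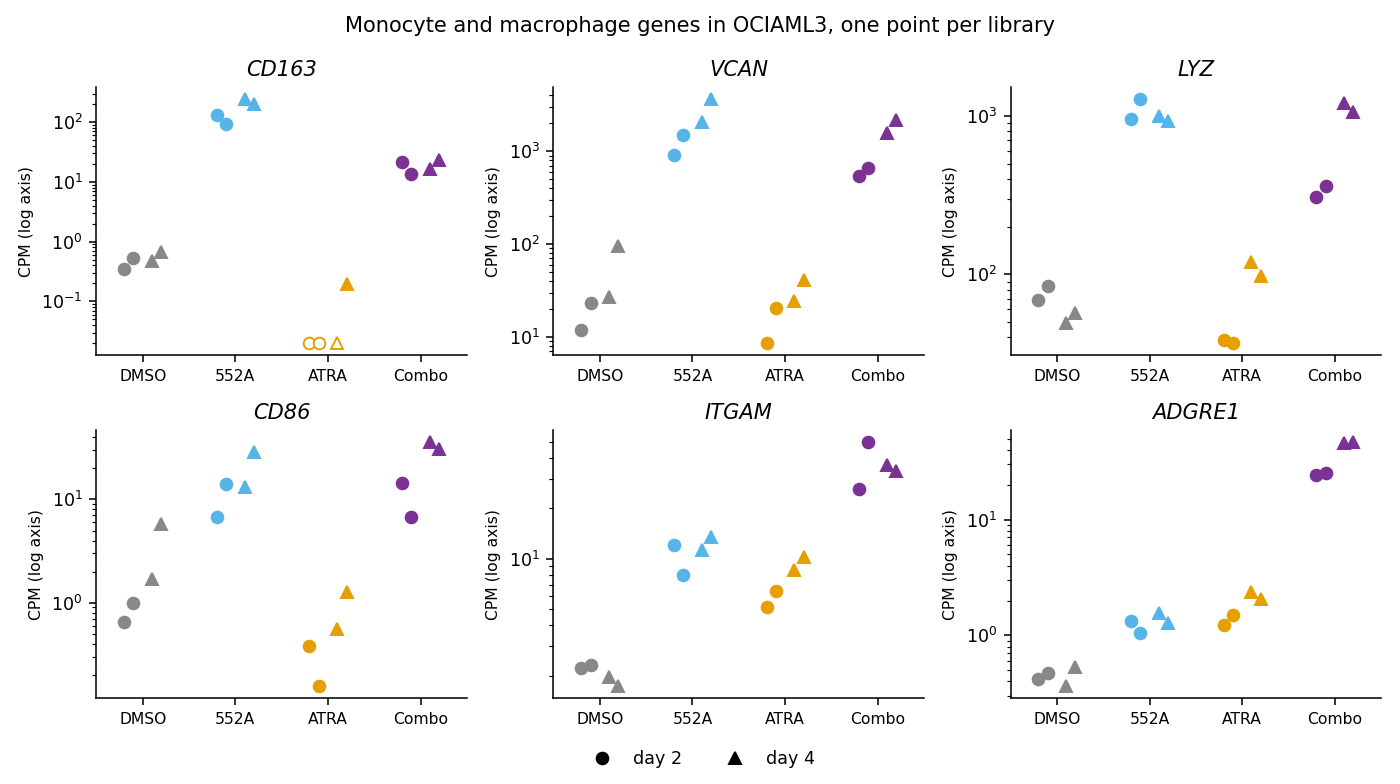
Normalised counts (CPM, log axis) of 4 genes of the monocyte and macrophage list and of the myeloid surface markers CD86 and ITGAM in the 16 OCIAML3 libraries, by treatment. Circles are day 2, triangles day 4, and open symbols on the lower edge mark values under 0.02 CPM. In all 6 genes the 4 Combo points lie above the 4 ATRA points, and CD163 and VCAN are higher still with 552A in the absence of ATRA. For CD163, VCAN, ADGRE1 and CD86 the naming rule required separation within each day. Only genes called higher are drawn. The 6 members of the monocyte and macrophage list called lower are not shown.

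Other large rises fell on genes of several kinds. HEY1, a Notch target and transcriptional repressor, was at 0.0477, 0, 0.0559 and 0.0985 CPM with ATRA and 4.54, 3.64, 24.1 and 13.5 CPM with Combo (7.57 ± 0.41 (SE), adjusted p = 1.73e-05). HEY1 was close to absent with ATRA and passed the filter on low counts only through its level in Combo. The size of its rise thus rests on few counts in ATRA. TCN1, a vitamin B12 carrier of specific granules, was at 1.48, 1.64, 2.4 and 2.31 CPM with ATRA and 44.4, 26.2, 151 and 108 CPM with Combo (5.23 ± 0.31 (SE), adjusted p = 2.07e-05). PTGIS, prostacyclin synthase, was at 3.39, 7.82, 0.782 and 0.985 CPM with ATRA and 84.8, 156, 33.1 and 37.1 CPM with Combo (4.82 ± 0.33 (SE), adjusted p = 3.84e-05). In each of these the groups were separate at both days, which the rule for naming the largest rises required. The complement receptor CR1 (3.81 ± 0.36), the protease granzyme A (GZMA, 4.93 ± 0.45), the prolactin receptor PRLR (4.00 ± 0.24), the glutamate transporter SLC1A3 (4.14 ± 0.20), the sulfotransferase SULT1B1 (4.21 ± 0.24) and the protocadherin PCDH18 (4.15 ± 0.23) were also among the 15 largest rises. Of 11 genes of HLA class II and its regulators, whose family members share sequence, 6 passed the filter on low counts, 5 of which were called higher. Some passed only through their level in Combo, so this count is not support for a rise of the list. The class II transactivator CIITA was at 2.91, 1.96, 3.41 and 2.51 CPM with ATRA and 4.41, 5.95, 7.32 and 6.13 CPM with Combo (1.15 ± 0.20 (SE), adjusted p = 0.00695). The invariant chain CD74 was at 0.72 ± 0.15 (adjusted p = 0.0173), a call lost without ATRA day 2 replicate 1, either ATRA day 4 library or Combo day 4 replicate 1. HLA-DRA stayed under 2 CPM, with 3 counts in ATRA and 69 in Combo, a ratio of 19.6 (95% exact interval 6.44 to 97.5). When single libraries were left out 3 to 5 of the 6 were called. The lipid-presenting CD1A was at 3.1, 2.27, 4.25 and 5.47 CPM with ATRA and 33, 24.9, 23.2 and 23.7 CPM with Combo (2.84 ± 0.27 (SE), adjusted p = 0.000219) and CD1C at 2.69 ± 0.28. They were the 2 rises among 10 dendritic cell genes tested, of which 3 were lower (5.61% of all genes were higher and 3.71% lower).

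Falls outside the interferon list included secreted and signalling proteins. CXCL12, the chemokine that binds CXCR4, was at 8.59, 8.99, 5.64 and 6.99 CPM with ATRA and 0.389, 0.455, 0.146 and 0.272 CPM with Combo, the largest fall in the comparison among the genes that the naming rule covers, with a log2 difference of -4.54 ± 0.24 (SE), adjusted p = 1.7e-05. The receptor tyrosine kinase ROS1 was at 19.7, 22.5, 11.7 and 12.4 CPM with ATRA and 2.08, 2.88, 0.244 and 0.0454 CPM with Combo (-4.07 ± 0.54 (SE), adjusted p = 0.00143), and the arms without ATRA gave 7.95 CPM with DMSO and 0.071 CPM with 552A at day 4. Both genes had no overlap between Combo and ATRA, and the rule for naming the largest falls required separation within each day. CHI3L1, a chitinase-like protein of neutrophils and macrophages, was among the abundant genes, at 2190, 1710, 3970 and 3640 CPM with ATRA and 516, 535, 924 and 624 CPM with Combo (-2.07 ± 0.16 (SE), adjusted p = 9.77e-05). CTSG, the granule protease cathepsin G, was at 1730, 1780, 2780 and 2300 CPM with ATRA and 596, 911, 621 and 480 CPM with Combo (-1.69 ± 0.23 (SE), adjusted p = 0.00162). The remaining large falls were SGCZ (-3.74 ± 0.23), CMYA5 (-3.41 ± 0.25), PLD4 (-2.73 ± 0.33), PTGDS (-2.73 ± 0.45) and THSD7A (-2.38 ± 0.11). FLT3, the cytokine receptor often mutated in AML, was at 527, 443, 592 and 588 CPM with ATRA and 239, 155, 242 and 271 CPM with Combo (-1.22 ± 0.14 (SE), adjusted p = 0.000775), and the chemokine receptor CCR1 at -1.03 ± 0.09 (adjusted p = 0.000127).

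Of 25 genes in the list of retinoic acid response and metabolism, which holds receptors, binding proteins and enzymes as well as targets, 23 were tested. Of these, 7 were called lower and 0 higher (3.71 and 5.61% of all genes), with a median of -0.25. CYP26A1, the enzyme that degrades retinoic acid and a direct target of its receptors, was at 39.5, 67.2, 111 and 77.5 CPM with ATRA and 46.4, 85.2, 115 and 115 CPM with Combo (0.32 ± 0.21 (SE), adjusted p = 0.392). The groups overlapped and no change was called. STRA6, the receptor for the plasma retinol carrier, was at 62.1, 92, 50.4 and 45.2 CPM with ATRA and 21.9, 28.7, 23.8 and 14.9 CPM with Combo (-1.43 ± 0.18 (SE), adjusted p = 0.00117), and RARRES3 was at -1.30 ± 0.26 (adjusted p = 0.0131), both without overlap and called whichever library was left out. The other 5, CYP26B1, DHRS3, ALDH1A2, RARB and TGM2, each lost the call without ATRA day 4 replicate 2 and without at least 2 other libraries, and 2 to 8 members were lower when single libraries were left out, 2 of them without ATRA day 4 replicate 2. With GC and length offsets 10 were lower and 2 higher. RARA itself was at -0.10 ± 0.31 (adjusted p = 0.877).

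Among LSD1 and its partners, KDM1A, which encodes LSD1, was at 119, 126, 121 and 126 CPM with ATRA and 139, 140, 162 and 183 CPM with Combo. The values did not overlap and the log2 difference was 0.36 ± 0.09 (SE), adjusted p = 0.0402, a call lost on leaving out any library except Combo day 2 replicate 2. The inhibitor acts on the protein, so this is a level of RNA and no check of inhibition. GFI1, the repressor that recruits LSD1, was at 133, 152, 131 and 104 CPM with ATRA and 304, 399, 337 and 275 CPM with Combo (1.36 ± 0.12 (SE), adjusted p = 0.000161), with separate groups. In DMSO it was at 235 CPM at day 2 and 209 CPM at day 4. Its paralogue GFI1B was too low to test, with 2 counts in ATRA and 1 in Combo. Of the 16 members of this list tested, 3 were higher and 2 lower (5.61 and 3.71% of all genes). Of these calls, GFI1 and ZMYM3 held whichever library was left out. SPI1, which encodes PU.1, was at -0.49 ± 0.30 (adjusted p = 0.368) with overlapping groups, and CEBPE was too low to test. Of 22 myeloid transcription factors tested 1 was higher and 2 were lower, EGR1 at -0.99 ± 0.18 (adjusted p = 0.00817) among them, a call lost in a fit of all 16 OCIAML3 libraries.

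Survival, growth and metabolic genes were described in separate lists. Of all genes tested 5.61% were called higher and 3.71% lower, the shares to set beside the counts of these lists. BCL2, the anti-apoptotic protein that venetoclax binds, was at 45.9, 56.4, 22.8 and 27.8 CPM with ATRA and 160, 182, 102 and 157 CPM with Combo, a log2 difference of 2.07 ± 0.18 (SE), adjusted p = 0.000153. Its level with both drugs was above that with ATRA in every library and below the 365 and 451 CPM of DMSO at day 2 and day 4. It was the 1 call among 8 anti-apoptotic genes. Of 16 death receptor and pro-apoptotic genes, BIK was higher (1.20 ± 0.22 (SE), adjusted p = 0.00905) and BMF lower (-1.27 ± 0.12 (SE), adjusted p = 0.00026), both of which encode BH3-only proteins. Of 23 genes of the MYC network and ribosome biogenesis 4 were higher and 0 lower (median 0.25), with POLR1B, a subunit of RNA polymerase I, at 60.6, 58.7, 58.6 and 64.7 CPM with ATRA and 118, 106, 122 and 131 CPM with Combo (1.00 ± 0.09 (SE), adjusted p = 0.000189). MYC was at 0.33 ± 0.19 (adjusted p = 0.311). The calls of NOLC1, ODC1 and GNL3 were each lost without ATRA day 4 replicate 1 and without at least 1 other library, so 1 to 4 members were called. Of 16 genes of the integrated stress response 4 were higher and 0 lower, with PSAT1, an enzyme of serine synthesis, at 1.09 ± 0.13 (SE), adjusted p = 0.000805. The count was 2 without ATRA day 2 replicate 2, either ATRA day 4 library, Combo day 2 replicate 1 or Combo day 4 replicate 1, and 9 with GC and length offsets, where 2 were lower. Of 17 cholesterol and fatty acid genes 4 were lower and 0 higher, led by MYLIP, which degrades the LDL receptor (-1.09 ± 0.09 (SE), adjusted p = 0.00013), and NR1H3, a sterol-sensing nuclear receptor (-0.97 ± 0.19 (SE), adjusted p = 0.0109). The count of 4 was 9 with GC and length offsets, 7 without Combo day 2 replicate 2 and 2 without ATRA day 2 replicate 2, either ATRA day 4 library or Combo day 2 replicate 1. In a fit of all 16 OCIAML3 libraries PSAT1, BIK and NR1H3 were not called. Of 27 cell cycle genes 0 were higher and 1 lower. IL1B was at 10, 9.07, 12.7 and 13.7 CPM with ATRA and 53.5, 58.6, 48.8 and 44.6 CPM with Combo (2.21 ± 0.17 (SE), adjusted p = 8.15e-05), and the chemokine CCL2 at 1.96 ± 0.18 (adjusted p = 0.000217), among 5 higher and 3 lower of 22 inflammatory genes tested.

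For the lists that follow, 5.61% of all genes tested were called higher and 3.71% lower. A count of 1 or 2 in a list is thus not read as a result about the list. Among the granule lists, 1 of 11 azurophil genes tested was higher, MS4A3 (0.75 ± 0.09 (SE), adjusted p = 0.00101), and 1 lower, CTSG. Of 5 specific and gelatinase granule genes tested 3 were higher, led by CEACAM1 (2.58 ± 0.30 (SE), adjusted p = 0.000722) and the gelatinase MMP9, with CHI3L1 lower. Of 6 NADPH oxidase subunits CYBB, the catalytic gp91 chain, was higher (0.82 ± 0.13 (SE), adjusted p = 0.00369) and none was lower. Of 8 neutrophil function genes tested 3 were higher and 2 lower. The lower calls were 0 without ATRA day 2 replicate 1, ATRA day 4 replicate 1, Combo day 2 replicate 1 or Combo day 4 replicate 2, and 1 without ATRA day 2 replicate 2, ATRA day 4 replicate 2 or Combo day 4 replicate 1. The alarmins S100A8 and S100A9 were at or under 12.8 CPM in all 8 libraries. S100A9 was nevertheless higher in Combo (3.53 ± 0.60 (SE), adjusted p = 0.00582), as was S100A8 (2.42 ± 0.45 (SE), adjusted p = 0.00889). In the lysosome list 2 were higher, SCARB2 among them, and 2 lower, of 19. The call of SCARB2 was lost on leaving out any library except Combo day 2 replicate 2. Of 20 stem and progenitor genes tested 2 were higher, SOX4 (1.12 ± 0.10 (SE), adjusted p = 0.000153) and GATA2, and 1 lower. Of 13 cell cycle inhibitors tested 2 were higher, BTG1 (1.05 ± 0.11 (SE), adjusted p = 0.000313) and GADD45A, and 1 lower. The call of GADD45A was lost without any ATRA library, Combo day 2 replicate 2 or Combo day 4 replicate 2, each left out singly. Of the SP100 family SP140 was higher (1.61 ± 0.18 (SE), adjusted p = 0.000594), and of 12 HLA class I and peptide loading genes none was called. Of the lists for other lineages, 0 of 4 megakaryocyte and erythroid genes tested were called, 1 of 2 mast cell, basophil and eosinophil genes was higher and 1 lower, and of 8 lymphoid genes GZMA, GNLY and FCRLA were higher and 2 lower. The call of FCRLA was lost without ATRA day 2 replicate 1 or either ATRA day 4 library. GNLY and FCRLA had 1 and 3 counts in ATRA and passed the filter only through their level in Combo. The lymphoid count is thus no support for a rise of that list. None of the 13 mitochondrially encoded genes was called, with a median of 0.20.

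The comparison was also made within each day. At day 2 314 genes were called higher (1.68%) and 148 lower (0.791%), and at day 4 359 (1.92%) and 173 (0.925%). Of the genes called higher, 247 were called at both days, 78.7% of the day 2 list and 68.8% of the day 4 list. Of those called lower 99 were shared, 66.9 and 57.2%. The 2 days share no library, and 312 of the 314 and 147 of the 148 day 2 calls had the same sign at day 4. A test of day 4 minus day 2 in edgeR called 0 genes, with 322 genes at an unadjusted p under 0.05, while DESeq2 called 1 gene, SEMA6D, named after its values were seen. With single libraries left out, 72 (without ATRA day 2 replicate 1) to 382 genes were called at day 2 and 110 (without ATRA day 4 replicate 2) to 660 at day 4. Of the interferon response list 16 members were called lower at day 2 and 17 at day 4. The levels of some genes moved with time in both arms, such as LYZ and VCAN, while the difference between the arms was 3.19 and 3.39 for LYZ and 5.44 and 5.85 for VCAN on the log2 scale at day 2 and day 4.

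Without ATRA, 552A against DMSO called 487 of 19165 genes higher and 201 lower in OCIAML3. Of the genes called higher with ATRA, 302 were also called higher without it, 28.8% of the former list and 62.0% of the latter, and 89 of those called lower were shared, 12.8 and 44.3%. In the opposite direction stood 5 and 4 genes. The dependence on GC content, as log2 per 10% GC, was 0.31 in 552A day 2 replicate 1 and -0.92 in replicate 2. The part of this spread in the number of calls without ATRA, and so in these shares, was not tested. The difference between the 2 effects was tested on all 16 OCIAML3 libraries. It was called higher with ATRA for 65 of 19683 genes (0.330%) and lower for 68 (0.345%), and 6 members of the interferon response list were among those lower. COL15A1 was at 10.1, 12.6, 11.8 and 10.3 CPM in the ATRA libraries and at 122, 110, 150 and 88.3 CPM in the Combo libraries, while DMSO and 552A gave 28.3 and 32.5 CPM at day 4. This basement membrane collagen rose with the inhibitor in ATRA-treated cells (3.42 ± 0.18) and was not called without ATRA (0.11 ± 0.15, adjusted p = 0.794), a log2 difference between the effects of 3.29 ± 0.25 (SE), adjusted p = 0.000427. PTGIS (3.33 ± 0.47), the adaptor SHE (3.03 ± 0.45) and SPARC, a secreted matrix protein (3.69 ± 0.38), also had a larger effect with ATRA. SPARC was lower with 552A than with DMSO (0.298 against 1.68 CPM at day 4) and higher with Combo than with ATRA (6.53 against 1.98 CPM). SHISAL1 (4.18 ± 0.67) was at 6.36 CPM with DMSO and under 1 CPM in the other arms at day 4, and its call was lost without 552A day 4 replicate 2, Combo day 2 replicate 1 or Combo day 4 replicate 1. BCL2 had a difference between the effects of 2.09 ± 0.24 (SE), adjusted p = 0.00268, with 451 CPM in DMSO and 371 CPM in 552A at day 4.

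In the other direction, ST6GALNAC5, a sialyltransferase, was at 0.124 CPM with DMSO, 2.85 with 552A, 87.7 with ATRA and 93.7 with Combo at day 4, so it rose with 552A (4.35 ± 0.56) at a low level and no change was called at the higher level with ATRA (0.42 ± 0.17, adjusted p = 0.176; difference between the effects -3.95 ± 0.58 (SE), adjusted p = 0.0092). IGFBP5, a binder of insulin-like growth factors, and the adhesion molecule CADM1 also rose with 552A and were higher with ATRA than with 552A, with differences between the effects of -3.67 ± 0.62 and -2.88 ± 0.29. FAM111B rose in both pairs, by less with ATRA (-2.98 ± 0.48). The ribonuclease ANG fell with ATRA present (-2.08 ± 0.30) and was not called without it (difference between the effects -2.80 ± 0.51). The differences of IGFBP5, FAM111B and ANG each lost their call without ATRA day 2 replicate 1, without DMSO day 2 replicate 1 and without other libraries, and that of ST6GALNAC5 without DMSO day 2 replicate 2. CD163 had a level with 552A above that with Combo, at 220 ± 27.2 and 20 ± 5.08 CPM (SD, n = 2) at day 4, and S100A9 was at 205 ± 15.7 CPM with 552A and 4.06 ± 0.475 CPM with Combo.

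**Figure D5:**
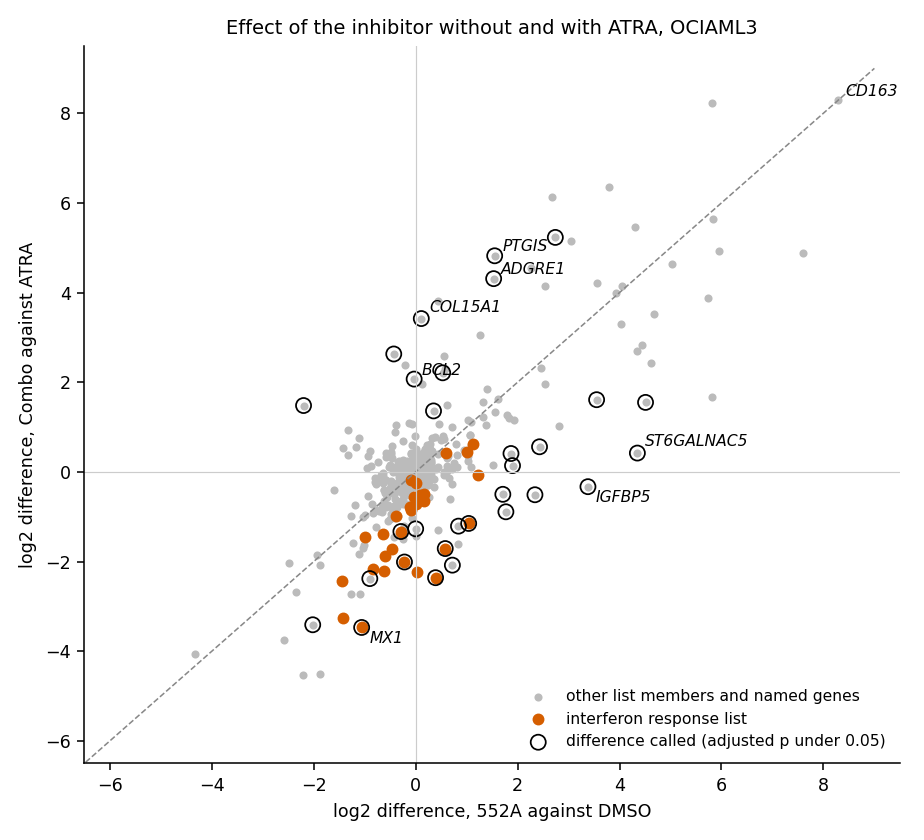
Each point is a gene of the lists or the naming rule (411 genes), placed by the log2 difference of 552A against DMSO (horizontal) and of Combo against ATRA (vertical) in OCIAML3 over both days. The dashed line marks equal effects, orange points are the interferon response list, and the 30 circled genes have a called difference between the effects. Most orange points lie below 0 on the vertical axis and near 0 on the horizontal axis.

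Set against the mean of the other 5 lines, genes with a large excess in OCIAML3 among those the naming rule covers were SELP (6.02 ± 1.43), CSMD1 (5.46 ± 0.76), ZNF556 (4.17 ± 0.99) and ADGRG3 (4.15 ± 1.11). All 4 were under 5 CPM in the ATRA and Combo libraries of OCIAML3, and ZNF556 had 0 counts in ATRA and 10 in Combo, so it rested on few counts. SELP, the adhesion receptor P-selectin, had 1 count in ATRA and 119 in Combo, a ratio of 102 (95% exact interval 17.9 to 4040). ADGRE1 had a larger effect in OCIAML3 by 3.96 ± 0.46 (SE), adjusted p = 3.31e-07, and within single lines it was at 2.27 in THP1, called, and 0.42, 0.24 and -0.77 in HL60, MOLM13 and MV411 without a call. BCL2 differed by 2.18 ± 0.20 (SE), adjusted p = 2.58e-09. Large deficits were those of IFITM1 (-4.74 ± 0.67), which shares sequence with its family, GBP1 (-3.84 ± 0.51), CMYA5 (-3.45 ± 0.42) and RASGEF1B (-3.40 ± 0.54). GBP1 had a positive value without a call in OCIAML3 itself, as given above, so its deficit is not a fall in this line. The fall of IFITM1, an interferon-inducible antiviral membrane protein, in OCIAML3 itself was from 2.58, 1.09, 3.41 and 2.61 CPM to 0.259, 0.0758, 0.146 and 0 CPM. Of 23 MYC network and ribosome biogenesis genes 13 had a higher effect in OCIAML3 than the mean of the others and 0 a lower one. It was 9 and 0 of 16 for the integrated stress response and 11 and 1 of 27 for the cell cycle list. Of all genes 4.57% were higher and 2.93% lower. Within single lines, MV411 and THP1 each called 12 of the MYC list lower (0 and 2 higher). MOLM13 called 15 of the stress response lower (0 higher). Cell cycle genes had 22 lower in THP1 and 13 in MV411 (0 and 1 higher), against 1 lower and 0 higher in OCIAML3. MYC itself differed by 1.31 ± 0.31 (SE), adjusted p = 0.0055, with -1.05, -1.73 and -1.02 in MOLM13, MV411 and THP1, all called, against 0.33 in OCIAML3 without a call. Of the 1049 genes called higher in OCIAML3, 409 were called higher in none of the other 5 lines and 8 in all of them. Of the 693 called lower 369 were called lower in none and 0 in all. Some were called the opposite way. Of the 693, THP1 called 112 higher and 106 lower, Kasumi1 73 and 33, MV411 49 and 250, MOLM13 47 and 80 and HL60 5 and 16. Of the 1049, THP1 called 134 lower and 397 higher, the most opposite calls of any line. HL60 called 0.734% of its genes higher and 0.344% lower, and 796 of the 1049 and 516 of the 693 genes were tested in it, which limits how many could be called in all lines. The 8 genes called higher in all 6 lines, named after their values were seen, were LYZ, SOAT1, LPXN, CAMSAP2, TULP4, SCD5, MPZL1 and NBPF9, the last of a family of near-identical copies.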

How the data were processed

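RNA of the OCIAML3, HL60, Kasumi1, MOLM13, MV411 and THP1 libraries was sequenced from stranded total RNA preparations, per the labels' protocols. The deposited table holds counts per gene, made by the authors with Trimmomatic 0.36, STAR 2.4.2a and HTSeq 0.6.0 on GRCh38, per the submitters' processing notes. Strand setting and annotation release: not given in the sources used here. Reads of overlapping or antisense genes may therefore be shared. Rows were named with GENCODE 29 (56994 of 60552 rows, with 0.0417% of the counts in unmatched rows). Counts were filtered (filterByExpr), TMM-normalised and tested with edgeR 4.0.16 (quasi-likelihood F test, day as a factor, Benjamini-Hochberg adjustment over all genes tested, threshold 0.05) in R 4.3.3. SEs are the log2 difference over the root of F. The test was tested on simulated counts with known changes.

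Named genes were the 15 largest rises and falls among called protein-coding genes whose log2 CPM averaged 1 or more, with separate groups within each day, the 5 largest each way for the differences between effects, up to 4 per list, and a fixed set of genes of interest. Members and lists were chosen with earlier results of these data known. Alternatives were DESeq2 1.42.0, other size factors, no filter, GC and length offsets, replicate blocks, a 2-fold minimum and libraries or lines left out. Replicates were distinct libraries, since their counts differed by a chi-square of at least 19.9 per degree of freedom. Counting intervals and floors (3 counts) cover counting error only. A few members of the lists and of the naming rule are not reported here.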

Additional observations from a re-analysis of the deposited data

Results flagged for a closer look

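The effect of the inhibitor differed between cells with and without ATRA, by a test of the difference itself, for 11 of the genes named above. The log2 effect with ATRA minus that of 552A alone was 4.18 for SHISAL1, 3.69 for SPARC, 3.33 for PTGIS, 3.29 for COL15A1, 3.03 for SHE and 2.09 for BCL2. It was -3.95 for ST6GALNAC5, -3.67 for IGFBP5, -2.98 for FAM111B, -2.88 for CADM1 and -2.80 for ANG.

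The effect with ATRA also differed between OCIAML3 and the mean of the other 5 lines for 14 named genes. The log2 difference was 6.02 for SELP, 5.46 for CSMD1, 4.17 for ZNF556 and 4.15 for ADGRG3, all at few counts in ATRA-treated OCIAML3 cells. It was 3.96 for ADGRE1, 2.18 for BCL2 and 1.31 for MYC. Among genes whose effect was lower in OCIAML3 than in the mean of the other lines it was -4.74 for IFITM1, -3.84 for GBP1, -3.45 for CMYA5, -3.40 for RASGEF1B, -3.02 for MX1, -2.21 for OAS2 and -1.39 for STAT2. Without a single library the call of ADGRG3 was lost in the case of Combo day 2 replicate 2, and that of ZNF556 in the case of either ATRA day 4 library or Combo day 4 replicate 2. OAS2 was not called when Kasumi1 or THP1 was left out of the other lines, nor ADGRG3 when MOLM13 was.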

How the results depend on the processing

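Combo against ATRA over both days called 1742 genes. The count was 3253 without the filter on low counts, 3406 with GC and length offsets, 2824 with these offsets and without ATRA day 2 replicate 2 (an alternative chosen after seeing the data), 1121 in a fit of all 16 OCIAML3 libraries and 797 with a 2-fold minimum; leaving out single libraries gave 1048 to 2512. At day 2 462 genes were called, against 1063 without the filter, 1374 with the offsets, 782 with the offsets and without ATRA day 2 replicate 2, and 72 to 382 with single libraries left out. At day 4 532 were called, against 1904, 1681 and 110 to 660 under the same alternatives without the filter, with the offsets and with single libraries left out. For day 4 minus day 2, edgeR called 0 genes (322 had an unadjusted p under 0.05), the fit without the filter called 18 and DESeq2 found 1, and single libraries left out gave 0 throughout.

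The effect with ATRA minus that of 552A alone was called for 133 genes, against 300 with DESeq2, 365 without the filter, 679 with the offsets and 781 with the offsets and without 552A day 2 replicate 2 (chosen after seeing the data). Leaving out single libraries gave 70 (without ATRA day 2 replicate 1 or DMSO day 2 replicate 2) to 415 (without 552A day 2 replicate 1), and 322 without 552A day 2 replicate 2. The difference from the other 5 lines was called for 1775 genes, against 3109 with the offsets and 1175 without THP1. It was called for 2135 without Kasumi1 Combo day 4 replicate 1 and MV411 Combo day 4 replicate 2, and for 880 to 1717 with single OCIAML3 libraries left out. The cause of these shifts was not tested, and the fits with libraries left out also had fewer samples.

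Whether equal replicate numbers pair the libraries was checked by the correlation of deviations from the group means. It was 0.69 and 0.73 between ATRA and Combo at day 2 and day 4. At day 2 it was -0.80 between 552A and Combo, -0.26 between DMSO and Combo and 0.02 between DMSO and ATRA. The rule required every pair of arms at both days to be over 0.1, so the numbers were not taken as pairs. With day and number as a replicate block 5041 genes were called over both days, and 5269 with the GC and length offsets as well. The block with the offsets gave 1691 genes at day 2, 2173 at day 4, 3 for day 4 minus day 2, 1032 for the effect with ATRA minus that of 552A alone and 3560 for the difference from other lines, and the block alone gave 354 at day 4. At day 4 every pair of arms correlated at over 0.1. Over both days the block called 7 cell cycle genes higher, 5 HLA class I genes lower, 3 NADPH oxidase genes lower and 10 cholesterol and fatty acid genes lower, against 0, 0, 0 and 4 without it.

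RARA, at -0.10, turned to 0.27 with the offsets, 0.28 with block and offsets and 0.35 with offsets and without ATRA day 2 replicate 2, and ranged from -0.48 to 0.10 with single libraries left out. Of 1972 values of named genes over both days under these alternatives, 1819 kept their direction and side of the threshold, 121 lost their call, 26 gained one and 6, all of RARA, reversed. In the fit of all 16 libraries IRF1, PSAT1, BIK, NR1H3, EGR1 and ICAM1, which kept their calls whichever of the 8 libraries was left out, were not called. Counts per gene limit what could be called for genes near 0 in ATRA, and 2 replicates per group and day limit the tests within a day.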
